A study of Mus musculus with 4 samples.

Results

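Transcripts of 55 genes of mitosis and the spindle were examined in Py-4-1, a mouse cell line from a hemangioendothelioma, which is a tumour of endothelial cells. The genes were taken from a list by symbol, and a gene was represented by the probe set with the highest mean log2 value among those that the platform annotation gives to that gene alone. Of the 55 genes, 52 had such a probe set, out of 12393 genes with one on the array, and the expression of Ccnb1, Cdca8 and Espl1 was not analysed here. The study's title concerns Prox-1 and the invasion of kaposiform hemangioendothelioma, and the comparison asks how clones with a Prox1 plasmid differ from clones with the plasmid alone. The groups were 2 stable clones labelled pcDNA/Prox1 and 2 clones labelled pcDNA, transfected with the control plasmid, all from the same parental line. Each clone was measured once, on 1 Affymetrix array, from a nearly confluent dish, so that differences between clones, cultures, RNA preparations and arrays cannot be told apart. Intensities are probe set signals on a linear scale, each array scaled to the same trimmed mean of 500.

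As background, a cell enters mitosis when the kinase Cdk1 is activated by its B-type and A-type cyclins, and it leaves mitosis when the anaphase-promoting complex, with its activator Cdc20, sends cyclin B and securin for destruction. In between, condensin compacts the chromosomes, kinetochores attach them to spindle microtubules, and the spindle checkpoint holds back anaphase until every chromosome is attached. Most of these genes are transcribed late in the cell cycle, and their RNA is low in cells that are not dividing. In RNA from a whole dish, fewer cells in mitosis and less of these RNAs per cell cannot be told apart.

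The promoters of many late cell cycle genes share a pair of short elements, the CCAAT box, bound by the factor NF-Y, and the cell cycle genes homology region, bound by MuvB complexes. RefSeq promoter windows of GRCm38.p6, running from 250 bases before to 50 bases after a gene's start, were matched by symbol for 46 of the 55 genes (49 windows, 3 genes with 2 windows). Entries for Ccna2, Cdc25c, Aurkb, Incenp, Kif20a, Tpx2, Smc4, Stmn1 and Foxm1 were not used here. The CCAAT box was searched by its letters, and the homology region by TTTGAA and its variant with the letters TTCGAA, on both strands. Matches were kept where they overlapped another motif, which occurred in 1 of the 49 windows. CCAAT stood in 40 of the 49 windows (81.6%) and in 37.4% of all 32851 windows of the table. TTTGAA stood in 36 (73.5%), against 17.9% of all windows, and TTCGAA in 4 (8.16%), against 1.56%. A window with CCAAT and 1 of the other 2 motifs was found 35 times (71.4%), against 7.52% of all windows. The 4 windows below are shown because the results turn on these genes, each gene read from the 1 probe set that represents it. Plk1 and Ccnb2 differed most between the 2 pcDNA clones on the log2(intensity + 47) scale. Cdc20 had the largest log2 change between the groups, and Smc2 had the smallest p. Capitals mark the matches to the 3 motifs on either strand.
Plk1, GRCm38.p6 chr7:122159185-122159484, plus strand: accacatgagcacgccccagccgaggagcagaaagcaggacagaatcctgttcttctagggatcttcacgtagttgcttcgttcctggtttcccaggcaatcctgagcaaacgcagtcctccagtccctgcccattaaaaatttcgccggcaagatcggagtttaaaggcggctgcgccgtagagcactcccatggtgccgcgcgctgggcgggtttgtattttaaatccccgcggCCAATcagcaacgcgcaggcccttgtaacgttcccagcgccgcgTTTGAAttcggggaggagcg
Ccnb2, GRCm38.p6 chr9:70421505-70421804, minus strand: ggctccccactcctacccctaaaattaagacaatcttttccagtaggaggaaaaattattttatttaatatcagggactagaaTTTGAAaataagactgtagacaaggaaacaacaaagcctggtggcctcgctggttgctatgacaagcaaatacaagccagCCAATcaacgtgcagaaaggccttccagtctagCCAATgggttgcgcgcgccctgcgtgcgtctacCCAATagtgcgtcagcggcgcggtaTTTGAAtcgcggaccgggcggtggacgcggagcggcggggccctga
Cdc20, GRCm38.p6 chr4:118437294-118437593, minus strand: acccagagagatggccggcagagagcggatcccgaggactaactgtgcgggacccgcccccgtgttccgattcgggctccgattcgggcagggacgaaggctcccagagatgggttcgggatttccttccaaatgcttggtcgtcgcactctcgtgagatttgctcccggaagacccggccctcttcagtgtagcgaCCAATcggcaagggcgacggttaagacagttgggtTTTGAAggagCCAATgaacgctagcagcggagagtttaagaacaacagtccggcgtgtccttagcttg
Smc2, GRCm38.p6 chr4:52438971-52439270, plus strand: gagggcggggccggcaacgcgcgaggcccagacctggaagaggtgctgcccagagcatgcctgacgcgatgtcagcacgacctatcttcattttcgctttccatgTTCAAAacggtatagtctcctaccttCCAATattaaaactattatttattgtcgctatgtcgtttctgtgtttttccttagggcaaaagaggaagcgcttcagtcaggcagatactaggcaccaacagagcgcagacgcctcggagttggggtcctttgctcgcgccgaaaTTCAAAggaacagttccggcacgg
In Ccnb2 there were 3 CCAAT matches on the gene's strand, beginning 87, 54 and 21 bases before the start, and 2 TTTGAA matches on that strand, beginning 167 bases before the start and 4 bases after it. In Cdc20, CCAAT began 53 and 8 bases before the start, with TTTGAA between them at 18 bases before it. Plk1 held 1 CCAAT, beginning 14 bases before the start, and 1 TTTGAA. In Smc2 CCAAT lay farther out, at 119 bases before the start, and both TTTGAA matches were on the opposite strand. A match is a string of letters and not a measured binding site.

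The arrays carried the transcripts of endothelium in all 4 clones. Of 10 endothelial markers 9 passed the filter on dim probe sets, and their summed intensity over all 10 was 45119 and 41556.5 in pcDNA/Prox1 clones 1 and 2, against 31644 and 41867 in pcDNA clones 1 and 2. Epithelial and hepatocyte markers lay below the filter for all 5 and 3 measured genes, as did 4 of 5 leukocyte markers and 3 of 5 fibroblast and mural cell markers. Prox1 itself read 62.4 and 44.3 in the pcDNA/Prox1 clones, against 52.1 and 60.5 in the pcDNA clones, with a log2 change of -0.047 (limma without the filter, adjusted p = 0.963). These values lay near the 25th percentile of all intensities (47) and below the array medians (163 to 180). A higher Prox1 level was thus not seen, but a probe set this dim says little about that level. The groups are called by their labels. The position of this probe set relative to the plasmid insert is not given in the sources used here.

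Of the 52 mitosis and spindle genes 50 passed the filter, and 0 of them differed between pcDNA/Prox1 and pcDNA clones by limma at an adjusted p under 0.05. The share of all 11656 probe sets called was 0.103%. At an unadjusted p under 0.05 there were 13 of the 50 higher (26%) and 0 lower, against 8.65% and 5.88% of all probe sets. The log2 change, pcDNA/Prox1 minus pcDNA on the log2(intensity + 47) scale, was positive for 44 of 50 genes, where 51.5% of all probe sets were positive, and its median was 0.37, where that of all probe sets was 0.012. The groups did not overlap in 18 genes, all higher in pcDNA/Prox1 (36%, against 23.9% of all probe sets), while 0 genes were lower without overlap (22.3% of all probe sets). With a log2 change of at least 0.5 as well there were 14 genes higher (28%) and 0 lower, against 8.15% and 5.17% of all probe sets. The direction of the list rested on pcDNA clone 1. Without that clone the median was -0.00066, with 25 genes positive and 25 negative, and without pcDNA clone 2 it was 0.82.

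**Figure D1:**
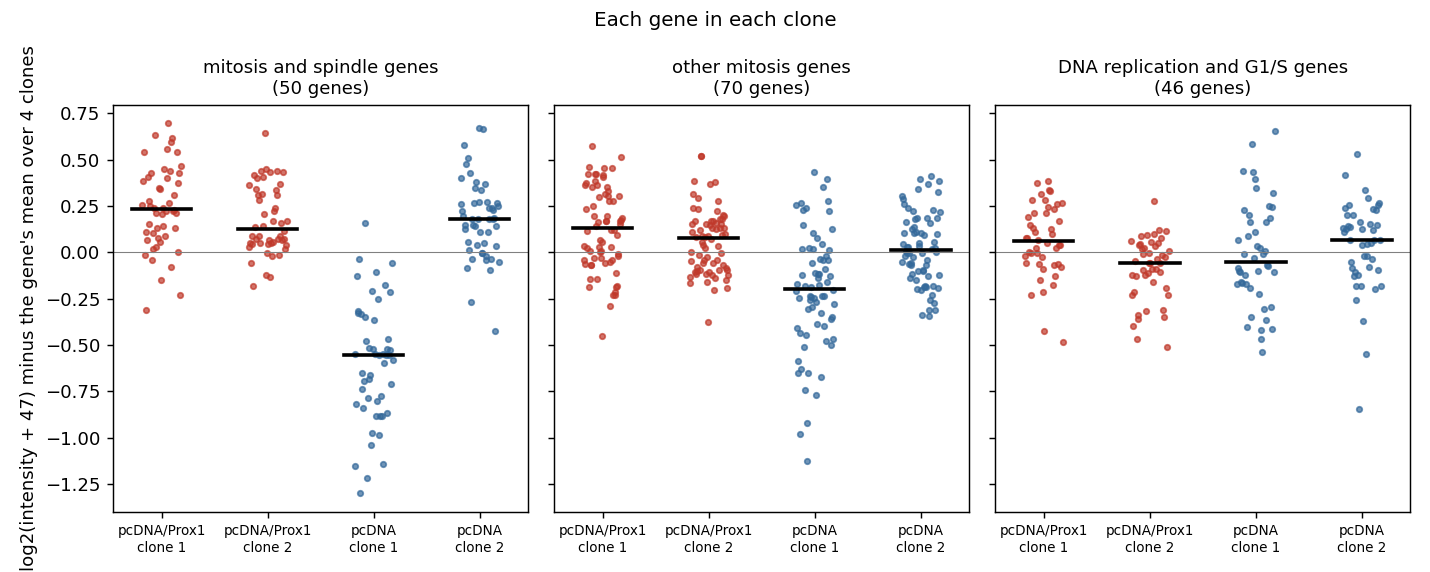
Points show, for each gene of 3 lists, log2(intensity + 47) in a clone minus that gene's mean over the 4 clones (vertical axis), with the clones on the horizontal axis and black bars at the median. In the mitosis and spindle genes the median was 0.23 and 0.13 in pcDNA/Prox1 clones 1 and 2, against -0.56 and 0.18 in pcDNA clones 1 and 2.

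By the median over these genes, 3 clones had similar levels and 1, pcDNA clone 1, had lower levels. Single genes differed from that. The pcDNA/Prox1 mean minus pcDNA clone 2 ran from -0.75 (Aurkb) to 0.91 (Smc2) on the log2(intensity + 47) scale. The array of the low clone stood apart in other measures too. The median intensity over its probe sets was 163, against 173 to 180 on the other 3 arrays, and the brightest of its 27 Bacillus control probe sets read 45.3, against 88.4 to 101. These control readings were dim, below the array median on each array. The part of the array of pcDNA clone 1 in the result was not tested. pcDNA clone 1 was the lowest of the 4 clones in 46 of the 50 genes (92%), and it was lowest in 33.6% of all probe sets. pcDNA clone 2 read above pcDNA clone 1 in 49 of 50 genes, against 54% of all probe sets, with a median difference of 0.82 on the log2(intensity + 47) scale (all probe sets 0.039). The difference was at least 1 on that scale, a doubling of intensity + 47, in 16 genes (32%), against 2.12% of all probe sets, and in the other direction in 0 genes, against 0.927%. By the ratio of the intensities themselves, 19 genes were at least 2-fold higher in pcDNA clone 2 (38%), against 3.16% of all probe sets, and 0 were at least 2-fold lower, against 1.31%. pcDNA clone 2 was the highest of the 4 clones in 20 genes (40%), against 27.3% of all probe sets. The 2 pcDNA/Prox1 clones differed at least 2-fold in 0 of the 50 genes on either scale, with clone 2 minus clone 1 on the log2(intensity + 47) scale running from -0.55 to 0.52 and a median of -0.060. Set against pcDNA clone 2 alone, the mean of the pcDNA/Prox1 clones was higher in 25 genes and lower in 25, where 48.4% of all probe sets were higher. The difference between 2 clones of a group has no replicate and was not tested.

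**Figure D2:**
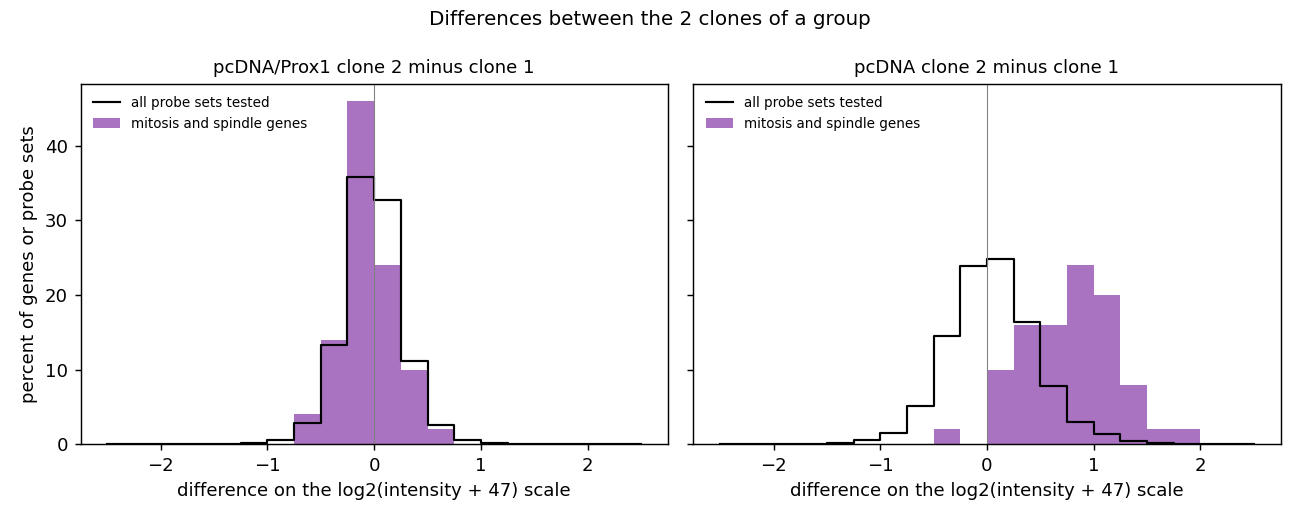
Bars show the distribution of the 50 mitosis and spindle genes, and lines that of all 11656 probe sets tested, over the difference between the 2 clones of a group (horizontal axis, log2 scale, bins of 0.25; vertical axis, percent). For the pcDNA/Prox1 clones both distributions centre near 0 (medians -0.060 and -0.016), while for the pcDNA clones the mitosis and spindle genes have a median of 0.82 and all probe sets one of 0.039.

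Among the cyclins, Cdk1 and its activators, 7 of 8 measured genes passed the filter. Of the 7, 6 had their highest level in pcDNA clone 2, against 27.3% of all probe sets. Ccnb2, a B-type cyclin, read 957 and 939 in pcDNA/Prox1 clones 1 and 2, against 298 and 968 in pcDNA clones 1 and 2 (1450920_at). Both pcDNA/Prox1 clones and pcDNA clone 2 lay within a narrow band, and the intensity in pcDNA clone 2 was 3.25 times that in pcDNA clone 1. The log2 change of Ccnb2 was 0.75 ± 0.41 (standard error, limma adjusted p = 0.441), and it was -0.029 without pcDNA clone 1.

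Cdk1, the kinase that drives mitotic entry, differed little between the clones, with 5173 and 5010.4 in the pcDNA/Prox1 clones and 4773 and 5979.9 in the pcDNA clones. The log2 change of Cdk1 was -0.069 ± 0.18 (limma adjusted p = 0.902), and the groups overlapped. The other members behaved in different ways. Ccnf, which encodes the F-box protein cyclin F, had a log2 change of 0.60 and Ccna2, the gene of cyclin A2, one of 0.28. Cdc25b, a phosphatase that activates Cdk1, had a log2 change of -0.26 and read 499 and 652 in the pcDNA/Prox1 clones, against 497 and 965 in the pcDNA clones. Cks1b and Cks2 encode related small Cdk-binding subunits, and their log2 changes were 0.20 and -0.11, with groups that overlapped. Cdc25c lay below the filter, with 139 and 125 in the pcDNA/Prox1 clones, against 60.9 and 143 in the pcDNA clones.

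All 4 mitotic kinases were lowest in pcDNA clone 1, against 33.6% of all probe sets. Plk1, which acts at centrosomes, kinetochores and the cleavage site, read 1067 and 1076 in the pcDNA/Prox1 clones, against 294 and 1120.5 in the pcDNA clones (1448191_at). The intensities of the pcDNA clones differed 3.81-fold, and pcDNA clone 2 lay above both pcDNA/Prox1 clones. The log2 change was 0.82 ± 0.46 (limma adjusted p = 0.447), -0.062 without pcDNA clone 1 and 1.71 without pcDNA clone 2.

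Aurka, the kinase of centrosomes and spindle poles, was also highest in pcDNA clone 2 and lowest in pcDNA clone 1, with 1539 and 1454 in the pcDNA/Prox1 clones, against 807 and 1984 in the pcDNA clones. Nek2, a kinase of centrosome separation, read 323 and 346 in the pcDNA/Prox1 clones, against 151 and 276 in the pcDNA clones, so that its groups did not overlap. The change in Nek2 was 0.59 ± 0.26 on the log2 scale (limma adjusted p = 0.343). Plk4, the kinase of centriole duplication, was also higher without overlap, with a log2 change of 0.41 (limma adjusted p = 0.373). Of its other probe sets above the filter, 1452115_a_at gave 0.32 without overlap and 1426580_at gave 0.086 with overlapping groups.

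Of the 5 spindle checkpoint genes, 4 were lowest in pcDNA clone 1, against 33.6% of all probe sets. Bub1, a checkpoint kinase of the kinetochore, read 709 and 696 in the pcDNA/Prox1 clones, against 267 and 519.5 in the pcDNA clones (1424046_at). Both pcDNA/Prox1 clones lay above both pcDNA clones, with a log2 change of 0.83 ± 0.28 (limma adjusted p = 0.237). Without pcDNA clone 1 the change of Bub1 was 0.40. Mad2l1, the Mad2 protein that inhibits Cdc20, was higher without overlap, with a log2 change of 0.38. Bub1b, the gene of BubR1, and the kinase gene Ttk had log2 changes of 0.27 and 0.29 with overlapping groups. Bub3, which carries Bub1 and BubR1 to the kinetochore, ran the other way between the pcDNA clones. It read 4277 and 4499.8 in the pcDNA/Prox1 clones, against 4722 and 3503 in the pcDNA clones, and was the 1 gene of the 50 that was higher in pcDNA clone 1 than in pcDNA clone 2.

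All 5 measured genes of the group named anaphase and its regulators were lowest in pcDNA clone 1, against 33.6% of all probe sets. Cdc20, the activator of the anaphase-promoting complex, had the largest log2 change of the 50 genes. It read 2574 and 2249 in the pcDNA/Prox1 clones, against 681 and 1825 in the pcDNA clones (1416664_at). The groups did not overlap, yet the intensities of the pcDNA clones differed 2.68-fold from each other. The log2 change was 1.07 ± 0.37 (limma adjusted p = 0.249), 0.39 without pcDNA clone 1 and 1.75 without pcDNA clone 2. A second probe set of Cdc20 (1439377_x_at) gave a log2 change of 1.38.

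Ube2c, the ubiquitin-conjugating enzyme of that complex, read 3634 and 3904 in the pcDNA/Prox1 clones, against 1795 and 3773 in the pcDNA clones. pcDNA clone 2 lay between the pcDNA/Prox1 clones, and the log2 change of 0.52 became -0.0026 without pcDNA clone 1. Pttg1, which encodes securin, had a log2 change of 0.17, and Cdca5, which encodes the cohesin protector sororin, had one of 0.28. Cdca3 was counted with these anaphase genes, although it is a trigger of mitotic entry. Its log2 change was 0.54, with groups that overlapped.

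At the centromere, Cenpa and Cenpf were higher in pcDNA/Prox1 without overlap, as were 23.9% of all probe sets. Cenpa, the histone H3 variant that marks centromeres, read 931.5 and 1155 in the pcDNA/Prox1 clones, against 327 and 743 in the pcDNA clones (1450842_a_at). Its log2 change was 1.00 ± 0.32 (limma adjusted p = 0.225), and 0.46 without pcDNA clone 1. Cenpf, a large kinetochore protein, read 750.3 and 813.5 in the pcDNA/Prox1 clones, against 274 and 665 in the pcDNA clones. The change in Cenpf was 0.79 ± 0.33 on the log2 scale (limma adjusted p = 0.318), and 0.22 without pcDNA clone 1. Cenph, of the inner kinetochore, overlapped between the groups, with a log2 change of -0.063. Cenpe, a kinesin of the kinetochore, lay below the filter, with 56.4 and 64.7 in the pcDNA/Prox1 clones, against 28.7 and 42.8 in the pcDNA clones.

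The 3 measured genes of the chromosomal passenger complex, which corrects faulty attachments and guides cytokinesis, all overlapped between the groups. Aurkb, its kinase, read 462 and 516 in the pcDNA/Prox1 clones, against 345 and 851 in the pcDNA clones (1424128_x_at). Both pcDNA/Prox1 clones lay between the 2 pcDNA clones, and the log2 change was -0.15 ± 0.34 (limma adjusted p = 0.885). A dimmer probe set of Aurkb (1451246_s_at) gave 0.22, so its direction depended on the probe set. Birc5, which encodes survivin, read 2114 and 2005 in the pcDNA/Prox1 clones, against 1289 and 2427 in the pcDNA clones. The log2 change of Birc5 was 0.21 ± 0.27 (limma adjusted p = 0.783), and as in Aurkb both pcDNA/Prox1 clones lay between the pcDNA clones. Incenp, the scaffold, read 2907 and 2592 in the pcDNA/Prox1 clones, against 1935 and 2711 in the pcDNA clones, with a log2 change of 0.26 ± 0.21 (limma adjusted p = 0.627). Of its 2 other probe sets above the filter, 1423092_at gave 0.29 and 1423093_at gave -0.078.

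All 6 mitotic kinesins had positive log2 changes, from 0.11 for Kif4 to 0.89 for Kif11. All 6 read lower in pcDNA/Prox1 clone 2 than in clone 1, while 5514 of all 11656 probe sets read higher in clone 2. Among the kinesins' other probe sets above the filter, 1449060_at of Kif2c (479 and 509) and 1451128_s_at of Kif22 (279 and 300) were higher in clone 2. The rest were lower. Kif11, the motor Eg5 that pushes spindle poles apart, read 627 and 619 in the pcDNA/Prox1 clones, against 221 and 444 in the pcDNA clones (1452315_at). Its log2 change was 0.89 ± 0.28 (limma adjusted p = 0.220), 0.45 without pcDNA clone 1 and 1.32 without pcDNA clone 2. Its other 2 probe sets gave 0.81 and 0.55.

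Kif2c, a microtubule depolymerase of the centromere, read 599 and 503 in the pcDNA/Prox1 clones, against 286 and 436.5 in the pcDNA clones (1454221_a_at). Its groups did not overlap, with a log2 change of 0.57 ± 0.23 (limma adjusted p = 0.312). Of 2 further probe sets above the filter, 1437611_x_at gave 1.35 and 1449060_at gave 1.09. Both had a wider gap between the pcDNA clones, which read 91.8 and 503 by 1437611_x_at and 119 and 342 by 1449060_at. Kif23 and Kif20a, both kinesins of cytokinesis, had log2 changes of 0.62 and 0.14 and had intensities 2.90-fold and 3.29-fold higher in pcDNA clone 2 than in pcDNA clone 1. The chromosome-arm kinesins Kif22 and Kif4 varied less between clones, with log2 changes of 0.21 and 0.11.

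The 7 spindle and microtubule genes were all lowest in pcDNA clone 1, against 33.6% of all probe sets. Of the 7, 5 were higher in pcDNA/Prox1 without overlap (71.4%, against 23.9% of all probe sets). Prc1, which bundles the microtubules of the central spindle, read 1726 and 1229 in the pcDNA/Prox1 clones, against 547 and 1018 in the pcDNA clones (1423775_s_at). Its log2 change was 0.92 ± 0.29 (limma adjusted p = 0.220), 0.50 without pcDNA clone 1, and its other probe set gave 0.94. The 2 pcDNA/Prox1 clones lay apart as well, with clone 1 above clone 2.

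Hmmr, a spindle pole protein that also binds hyaluronan, read 1219 and 990.4 in the pcDNA/Prox1 clones, against 333 and 942 in the pcDNA clones. Hmmr had a log2 change of 0.90 ± 0.38 (limma adjusted p = 0.324), and its 3 other probe sets gave 0.79 to 0.86. The groups did not overlap, by the margin between pcDNA/Prox1 clone 2 and pcDNA clone 2. Nusap1, which binds spindle microtubules near chromatin, read 1083 and 1007 in the pcDNA/Prox1 clones, against 405 and 852 in the pcDNA clones, with a log2 change of 0.78 ± 0.30 (limma adjusted p = 0.288). Ckap2, a microtubule stabiliser, read 1892 and 1279 in the pcDNA/Prox1 clones, against 789 and 1135 in the pcDNA clones, with a log2 change of 0.69 ± 0.25 (limma adjusted p = 0.266). The groups of both Nusap1 and Ckap2 were separate. Tpx2, which activates Aurora A, and Spag5, astrin, had log2 changes of 0.51 and 0.36 with overlapping groups, and a dimmer probe set of Tpx2 (1428105_at) gave -0.13. Stmn1, the microtubule destabiliser stathmin, was higher without overlap by 0.21.

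Among the 3 genes of cytokinesis, Ect2 was higher in pcDNA/Prox1 without overlap, as were 23.9% of all probe sets. Ect2, the exchange factor that activates RhoA at the cleavage site, read 480 and 502 in the pcDNA/Prox1 clones, against 186 and 435 in the pcDNA clones, with a log2 change of 0.68 ± 0.31 (limma adjusted p = 0.360). Its partner Racgap1 and the actin-binding anillin gene Anln had log2 changes of 0.32 and 0.29, with pcDNA clone 2 the highest of the 4 clones in both.

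Smc2, a core subunit of both condensin complexes, had the smallest p of all 50 genes and did not show the gap between the pcDNA clones. It read 1355 and 1253 in the pcDNA/Prox1 clones, against 609 and 671 in the pcDNA clones (1448635_at). The clones of a group lay close together and the groups far apart, with means of 1304 ± 72.0 and 640 ± 43.8 (SD, n = 2 each). The mean intensity was thus 2.04-fold higher. The log2 change was 0.98 ± 0.19 (limma adjusted p = 0.116), and it was 0.91 without pcDNA clone 1 and 1.04 without pcDNA clone 2. The size of the Smc2 difference thus moved little whichever pcDNA clone was left out, and it did not pass the threshold when all 4 clones were compared. It passed without pcDNA clone 2 (limma adjusted p = 0.0106), and over all alternatives its adjusted p ran up to 0.371.

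The partner of Smc2 in condensin, Smc4, read 2132 and 1777 in the pcDNA/Prox1 clones, against 1123 and 1673 in the pcDNA clones. Smc4 had a log2 change of 0.49 (limma adjusted p = 0.365), and its 2 other probe sets gave 0.60 and 0.74. The condensin I subunits Ncapd2 and Ncaph had log2 changes of 0.44 and 0.073 with overlapping groups. Top2a, the topoisomerase that untangles sister chromatids, read 3048 and 2750 in the pcDNA/Prox1 clones, against 1880 and 2992 in the pcDNA clones. Its log2 change was 0.28 ± 0.23 (limma adjusted p = 0.633), and pcDNA clone 2 lay between the pcDNA/Prox1 clones.

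Mki67, which encodes the proliferation marker Ki-67, read 1606 and 1300.4 in the pcDNA/Prox1 clones, against 753 and 1109 in the pcDNA clones (1426817_at). The groups did not overlap, and the log2 change was 0.63 ± 0.23 (limma adjusted p = 0.266). Foxm1, the transcription factor that activates many late cell cycle genes, read 405 and 497 in the pcDNA/Prox1 clones, against 464 and 583 in the pcDNA clones (1448833_at). Its lowest level was in pcDNA/Prox1 clone 1, the groups overlapped, and the log2 change was -0.19 ± 0.21 (limma adjusted p = 0.736). Another probe set of Foxm1 above the filter (1417748_x_at) gave 0.10, so its direction depended on the probe set.

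**Figure D3:**
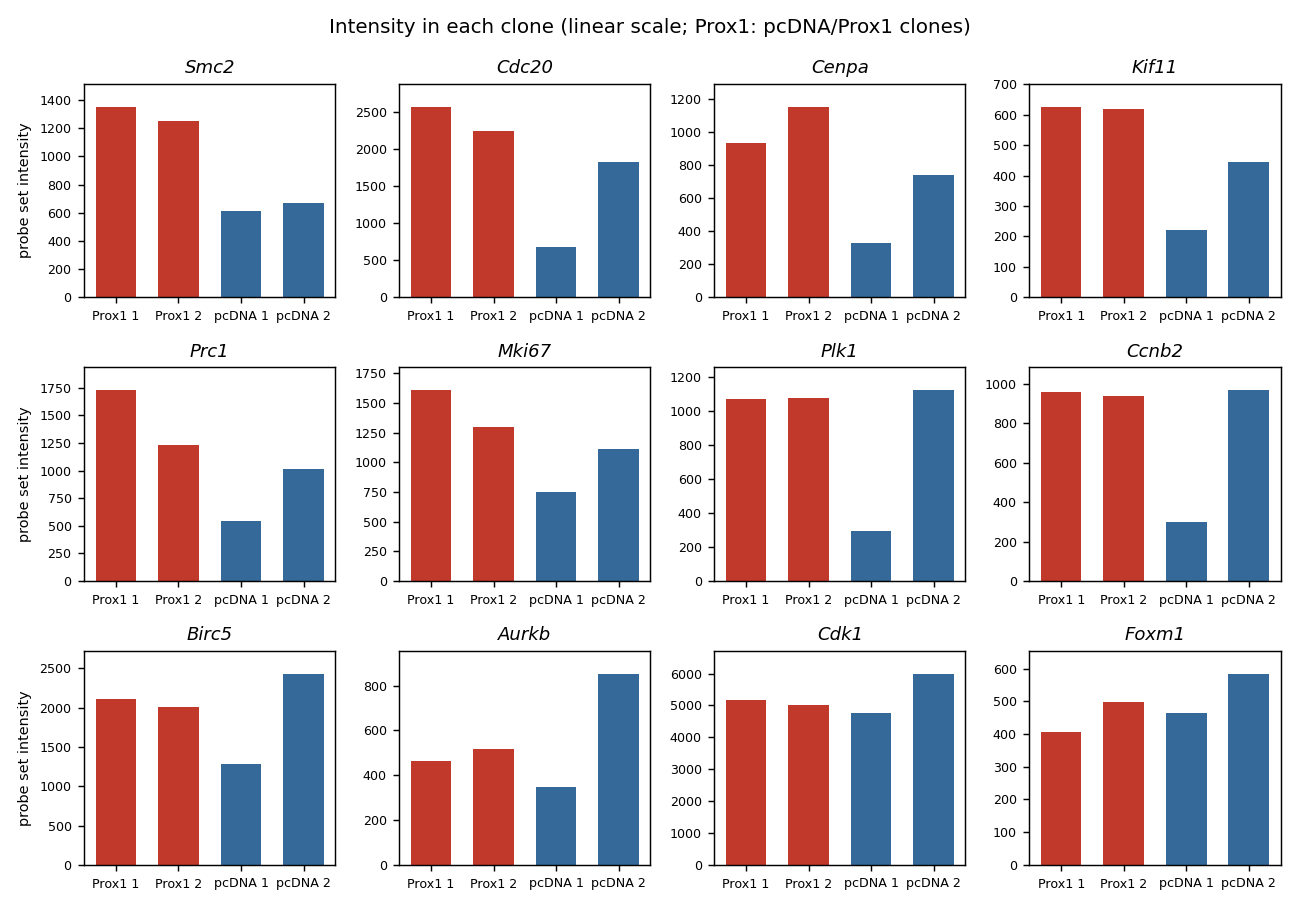
Bars show the probe set intensity (vertical axes, linear, from 0, each gene on its own scale) of 12 mitosis and spindle genes in the 2 pcDNA/Prox1 clones (red) and the 2 pcDNA clones (blue), 1 array each. In Smc2 both pcDNA clones are low (609 and 671), in Plk1 and Ccnb2 pcDNA clone 1 alone is low (294 and 298), and Cdk1 differs little (4773 to 5979.9).

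Leaving out a pcDNA clone showed how far each gene leaned on it. Without pcDNA clone 2, limma called 29 of the 50 genes higher in pcDNA/Prox1 (58%) and 0 lower, against 6.34% and 3.53% of all probe sets. The 29 comprised 5 of 7 spindle and microtubule genes, 4 of 6 kinesins, 4 of 5 anaphase genes, 3 of 4 mitotic kinases, 3 of 5 condensin and topoisomerase genes, 2 of 3 centromere genes and 2 of 3 cytokinesis genes. They also held 2 of 5 checkpoint genes, 2 of 7 genes among the cyclins, Cdk1 and its activators, 1 of 3 passenger complex genes, and Mki67 but not Foxm1. Without pcDNA clone 1, limma called 0 of the 50, against 0.875% of all probe sets called higher and 0.266% called lower. At an unadjusted p under 0.05, 3 of the 50 were higher and 3 lower, against 10.2% and 8.2% of all probe sets. The sign of the log2 change turned in 19 of the 50 genes without pcDNA clone 1. It turned in 3 of 5 anaphase genes, 3 of 5 condensin and topoisomerase genes, 2 of 3 cytokinesis genes, 2 of 4 mitotic kinases, 3 of 7 genes among the cyclins, Cdk1 and its activators, and 2 of 5 checkpoint genes. In the remaining groups it turned in 2 of 6 kinesins, 1 of 3 passenger complex genes, 1 of 7 spindle and microtubule genes, 0 of 3 centromere genes and neither Mki67 nor Foxm1. Without pcDNA clone 2 it turned in 5 of the 50, namely Cdk1, Cdc25b, Bub3, Cenph and Aurkb. In each of these fits the group with 1 clone left is assumed to vary like the other. The 50 genes did not meet that assumption as a set. By the ratio of the intensities, the pcDNA clones differed at least 2-fold in 19 genes and the pcDNA/Prox1 clones in 0. Without a pcDNA clone, a gene's own spread came from the pcDNA/Prox1 clones alone. The calls without pcDNA clone 2 thus set pcDNA clone 1 against a spread that leaves out the difference between the pcDNA clones. Without pcDNA/Prox1 clone 1, 0 of the 50 genes were called, against 0.223% of all probe sets called higher and 0.137% called lower. At an unadjusted p under 0.05, 8 of the 50 were then higher and 0 lower, against 4.11% and 2.58% of all probe sets. Without pcDNA/Prox1 clone 2, 0 of the 50 were called, against 0.395% and 0.18% of all probe sets, and 12 were higher and 0 lower at an unadjusted p under 0.05, against 4.75% and 3.05%.

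**Figure D4:**
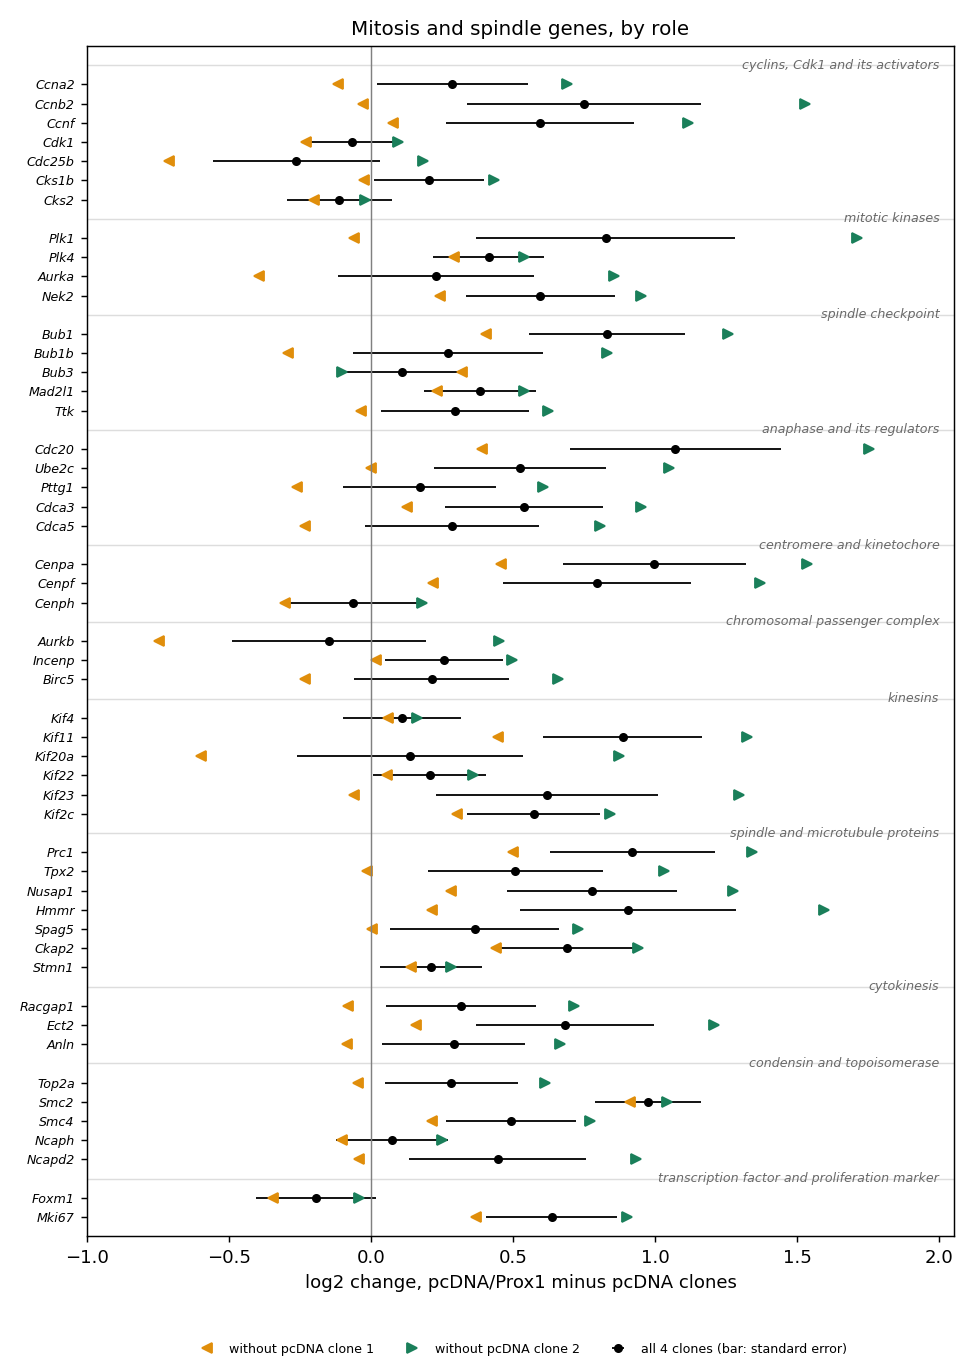
Points show the log2 change (horizontal axis, pcDNA/Prox1 minus pcDNA) of the 50 mitosis and spindle genes in role groups (rows), with standard errors of the limma fit as bars, and triangles show the change without pcDNA clone 1 (pointing left) and without pcDNA clone 2 (pointing right). The triangles lie far apart for Plk1 (-0.062 and 1.71) and close together for Smc2 (0.91 and 1.04).

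Of the 52 genes 28 had more than 1 probe set, and 20 had a second one above the filter, 28 such probe sets in all. The sign of the log2 change was that of the first probe set in 24 of the 28, the exceptions being 1 probe set each of Aurkb, Foxm1, Incenp and Tpx2, and 26 of the 28 read higher in pcDNA clone 2 than in pcDNA clone 1. The promoter motifs were set beside the clone difference. Of 13 genes with a window that were higher in pcDNA clone 2 than in pcDNA clone 1 by at least 1 on the log2(intensity + 47) scale, 12 held CCAAT together with TTTGAA or TTCGAA, as did 18 of 29 genes with a smaller difference. These classes were made from the measured values, and the count is a description.

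Other mitosis genes, a list without these 55, were set beside them. Of 109 listed 79 were measured and 70 passed the filter, with 49 positive log2 changes and a median of 0.15, and limma called 0 in either direction. At an unadjusted p under 0.05, 11 were higher (15.7%) and 1 lower, against 8.65% and 5.88% of all probe sets. The groups did not overlap in 27 genes higher (38.6%) and 10 lower (14.3%), against 23.9% and 22.3% of all probe sets. Set against pcDNA clone 2 alone, the pcDNA/Prox1 mean was higher in 41 genes and lower in 29, where 48.4% of all probe sets were higher. The median of that difference was 0.10, against -0.013 over all probe sets. pcDNA clone 1 was the lowest clone in 37 of the 70 (52.9%, against 33.6% of all probe sets), and the median difference between pcDNA clones 2 and 1 was 0.22. Aspm, a spindle pole protein, read 442 and 475 in the pcDNA/Prox1 clones, against 145 and 311 in the pcDNA clones, with a log2 change of 0.95 (limma adjusted p = 0.209). Sgo1, the shugoshin that protects centromeric cohesion, read 942 and 733 in the pcDNA/Prox1 clones, against 350 and 586 in the pcDNA clones, with a log2 change of 0.81 (limma adjusted p = 0.221). In both, all pcDNA/Prox1 values lay above all pcDNA values.

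Lower in the pcDNA/Prox1 clones was Anapc11, the RING subunit of the anaphase-promoting complex, with 519 and 549, against 996 and 969 in the pcDNA clones, a log2 change of -0.83 (limma adjusted p = 0.144). The clones of each group lay close together, as in Smc2. Trip13, an ATPase that disassembles the checkpoint complex, was the other gene with a negative change named by the rule, at -0.33 (limma adjusted p = 0.547).

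Genes of DNA replication and the G1/S step, which are transcribed earlier in the cycle, were set beside them too. Cdc25a was in both this list and that of the other mitosis genes. Of 53 listed 48 were measured and 46 passed the filter, with 22 positive log2 changes, 24 negative, and a median of -0.034. Limma called 0 in either direction. At an unadjusted p under 0.05, 1 was higher (2.17%) and 3 lower, against 8.65% and 5.88% of all probe sets. pcDNA clone 1 was the lowest clone in 18 of the 46 (39.1%). The groups did not overlap in 6 genes higher (13%) and 9 lower (19.6%), against 23.9% and 22.3% of all probe sets. The median difference between pcDNA clones 2 and 1 was 0.076, and 0 genes were at least 2-fold higher in pcDNA clone 2 on either scale. In the other direction there was 1, Ccne2, which read 674 in pcDNA clone 1 and 250 in pcDNA clone 2. The difference between the lists was not tested. The summed intensity of the endothelial markers, in which bright markers weigh most, was also lowest in pcDNA clone 1. So was each measured endothelial marker except Pecam1, which read 5679 in pcDNA clone 1 and 5418 in pcDNA clone 2. The part of these markers in the result was not tested.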

How the data were processed

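Gene expression was measured on 4 one-colour arrays of Py-4-1 clones, 2 labelled pcDNA/Prox1 and 2 labelled pcDNA. The deposited intensities were made with MAS5, per the submitters' processing notes, which reduces the probes of a probe set to 1 signal. Its version is not given in the sources used here. Each deposited column had a mean of 500 once 2% was trimmed at either end, and no normalization was added. Precision is limited by the number of arrays, and with 2 clones in each group no exact permutation test can go below p = 0.333.

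Of 22690 probe sets, 64 controls were left out, and 20380 of the others had 1 gene in the platform annotation, 691 several and 1555 none. The pseudocount of 47 was the 25th percentile of all intensities, and the log2(intensity + 47) scale understates changes of dim genes. A probe set was tested if it exceeded the array median in 2 or more of the 4 arrays (11656). The test was limma 3.58.1 in R 4.3.3 (lmFit, eBayes with an intensity trend, two-sided), its p-values adjusted by Benjamini-Hochberg across the 11656 and called under 0.05. Genes below that filter were read from the fit without it.

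The members and lists were chosen with earlier results of these data known. Per-clone values are given for members past the threshold, for those with groups not overlapping and a log2 change of at least 0.5, for the smallest p of each role group and for a few set genes. Of the other mitosis genes, the 2 with the smallest p in each direction are named. Other values were chosen after they were seen. Alternatives covered the scaling (quantile, median), the pseudocount (none, or 173, the median intensity), the filter (none, or the 75th percentile), the variance model (without a trend, or robust), a block for the clone number, each clone left out, probe sets with a cross-hybridisation suffix left out, and averaging the probe sets of a gene.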

Additional observations from a re-analysis of the deposited data

How the results depend on the processing

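The count of mitosis and spindle genes past the threshold stayed at 0 under every alternative run except leaving out pcDNA clone 2, where it was 29. Over the 4 fits that left out a clone, that count ran from 0 to 29, the median log2 change of these genes from -0.00066 (without pcDNA clone 1) to 0.82 (without pcDNA clone 2), and the count over all probe sets from 42 to 1150. Under the other alternatives the median ran from 0.29 to 0.44. The count over all probe sets, 12 in the comparison as reported, was 4 under quantile normalization and 4 under median centring, 0 without the filter, where 22626 probe sets were tested, 7 with the robust variance model and 6 without probe sets that can cross-hybridise, where 7314 were tested. Where no cause is given, the cause was not tested. Of the genes whose choice followed the naming rule, the direction turned without pcDNA clone 1 for Ccnb2 (-0.029, or 1.53 without pcDNA clone 2), Plk1 (-0.062, or 1.71), Birc5 (-0.23, or 0.66) and Top2a (-0.047, or 0.61), which are 4 of the 19 of all 50 genes that turned in that fit. Among the genes named by the rule it turned without pcDNA clone 2 for Cdk1 (0.092, or -0.23 without pcDNA clone 1) and Aurkb (0.45, or -0.75), 2 of 5 among all 50, and with the mean over probe sets of a gene for Aurkb (0.036). The labels do not say whether clones of the same number were handled together. The differences between clones 2 and 1 of the 2 groups had a correlation of -0.0091 over probe sets. That value cannot decide it, since a shared effect smaller than the clone differences could leave it near 0. With the clone number as a replicate block 110 probe sets were called, 0 of them mitosis and spindle genes.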
